A study of Mus musculus with 30 samples.

Results

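Quadriceps of Gaa knockout (KO) mice was compared with quadriceps of Gaa wild-type (WT) mice on a background mixed from B6;129 and DBA2/J. The members were the 6 quadriceps libraries whose titles carry KO or WT together with DBA, of 30 libraries in the series, with 3 mice in each group. All genes of the deposited table were taken, and 14113 of its 17420 genes passed a filter on low values and were tested. The other libraries come from spinal cord, from the B6;129 background and from AAV-treated KO mice of the mixed background.

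KO and WT mice were both of the mixed strain B6;129;DBA2/J, and the labels give Ltbp4D36/D36 for both, so that the groups differ by label in Gaa alone. All 6 mice were male, 4 months old and untreated. The mice of the other quadriceps groups, which enter the fit, were also 4 months old. How the Gaa allele was disrupted, and whether KO and WT mice were littermates, is not given in the sources used here. RNA came from snap-frozen muscle, and polyA libraries were read single-end. The labels number the KO mice 6, 7 and 8 and the WT mice 1, 3 and 4, and values per library are given in these orders.

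The product of Gaa is acid alpha-glucosidase, which releases glucose from glycogen delivered to lysosomes by autophagy. Its loss causes Pompe disease, in which skeletal and heart muscle fibres fill with swollen glycogen-laden lysosomes and stalled autophagic vesicles. The lysosome is kept acidic by the vacuolar ATPase, and its genes share regulators of the TFEB family, which enter the nucleus when the kinase mTORC1 on the lysosomal surface is inactive. Ltbp4 codes for a matrix protein that holds latent TGF-beta, and its DBA2/J allele is known to worsen muscular dystrophy in mice.

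Values are the deposited linear signal, a normalized read count that is not divided by gene length, so levels are compared between libraries and never between genes. A library without a read of a gene is given 0.5 of a read's signal there and so does not stand at 0. Differences are KO minus WT on the scale of log2(signal + 0.5), with the standard error of the limma fit (n = 3 mice in each group). That error pools the spread within all 5 quadriceps groups of the series, not within KO and WT alone. A gene is said to have risen or fallen where its Benjamini-Hochberg adjusted p over all 14113 genes was under 0.05. In bulk tissue, fewer cells of a type and less RNA per cell cannot be told apart.

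The KO libraries held 16854081 to 24660144 recovered reads and the WT libraries 23494194 to 30253043. The first principal component of the 6 libraries held 61.1% of the variance and separated KO from WT. The second held 15.6% and set WT library 4 apart from the other WT libraries. In that library 406 genes stood more than 2-fold away from both group mates, against 109 to 181 in the KO libraries and 113 and 159 in the other WT libraries. They include the immediate-early genes Fos (184 in WT 4, against 22.3 and 31.1 in WT 1 and WT 3) and Atf3 (372, against 20.4 and 13.4). They also include the muscle stress gene Ankrd1 (228, against 8.55 and 10.2). The heat shock gene Hspa1b was high in 1 library of each group (43.8, 274 and 21.3 in KO, against 17, 16 and 337 in WT). KO library 8 was the lowest KO library for many matrix and complement genes, among them C3 (218, 168 and 68.5 in KO, against 88, 90.3 and 93.5 in WT). The haemoglobin gene Hba-a2 varied within both groups (6.87, 248 and 47.7 in KO, against 19.7, 44.5 and 112 in WT). Ankrd1 was not called with all libraries (1.27 ± 0.88) and was called as higher in KO without WT 4 (2.78).

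**Figure D1:**
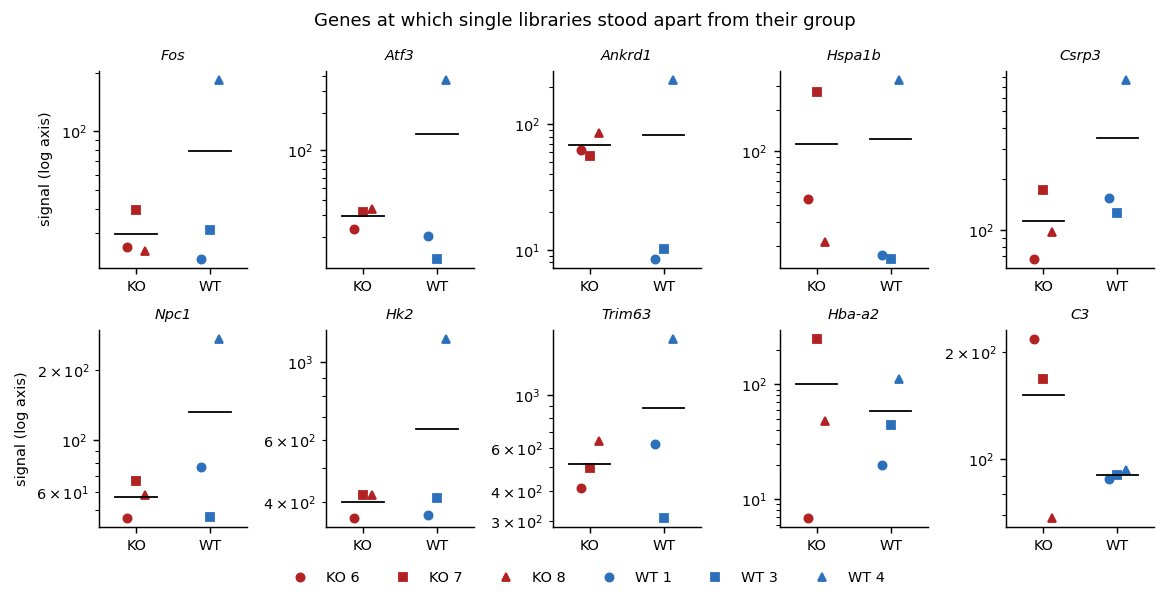
Deposited signal per library (log axis) of 10 genes in the 3 KO (red, left) and 3 WT (blue, right) quadriceps libraries, with the mean as a black line. WT library 4 stands above the other WT libraries for Fos, Atf3, Ankrd1 and Hspa1b, and KO library 8 lies below the other KO libraries for C3.

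Gaa itself checked the labels. Its transcript stood at 11.6, 16.5 and 16.7 in KO quadriceps, against 214, 169 and 254 in WT quadriceps. Every KO library lay far below every WT library, with a log2 difference of -3.79 ± 0.15 (adjusted p = 4.52e-09). Ltbp4 stood at 29.9, 42.3 and 31.2 in KO, against 71.3, 87.2 and 58.1 in WT. The highest KO library lay below the lowest WT library, and Ltbp4 fell by 1.05 on the log2 scale (SE 0.19), adjusted p = 0.000612, with the same Ltbp4 allele in both groups. Its relative Ltbp1 stood at 76.3, 63.9 and 58.3 in KO, against 17, 17.5 and 18 in WT. Ltbp1 rose without overlap of the groups, with a difference of 1.88 ± 0.17 (adjusted p = 3.44e-06). Ltbp3, another latent TGF-beta binding protein, fell (61, 62.9 and 67.2 in KO, against 94.1, 90.1 and 72.8 in WT; log2 difference -0.42 ± 0.11), a call lost under quantile normalization and under scaling to total reads.

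Over all genes, 5562 of 14113 (39.4%) differed between KO and WT: 2414 (17.1%) rose and 3148 (22.3%) fell. Of these, 1165 (8.25%) differed by more than 2-fold, 719 upward (5.09%) and 446 downward (3.16%). At 46.4% of tested genes the ranges of KO and WT were separate, with KO higher at 20.6% and KO lower at 25.8%. The median difference over all genes was -0.04. When libraries were scaled to their total reads in place of the authors' scaling, that median became 0.24, a shift of 0.27, and 5004 genes rose and 1198 fell. Under that scaling small falls turn into small rises, and changes of gene groups are read beside these background shares and the median of all genes.

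**Figure D2:**
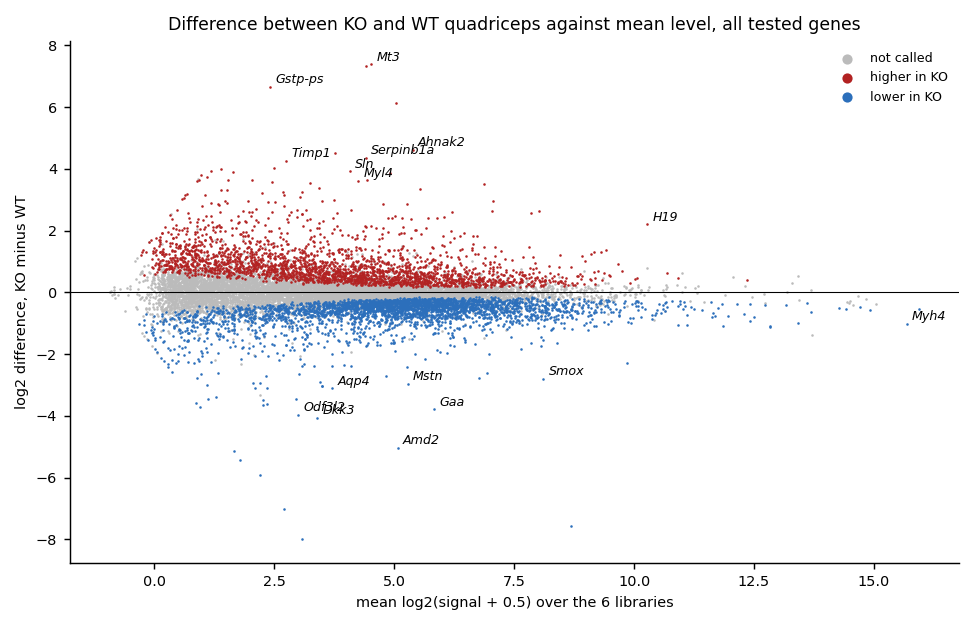
Log2 difference, KO minus WT, of each tested gene (vertical axis) against its mean log2 signal (horizontal axis), with genes that rose or fell coloured and named genes labelled. Mt3 is the highest point at 7.38, with another gene close below it, and Gaa at -3.79, Dkk3 at -4.06 and Odf3l2 at -3.96 are labelled among the genes that fell.

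**Figure D3:**
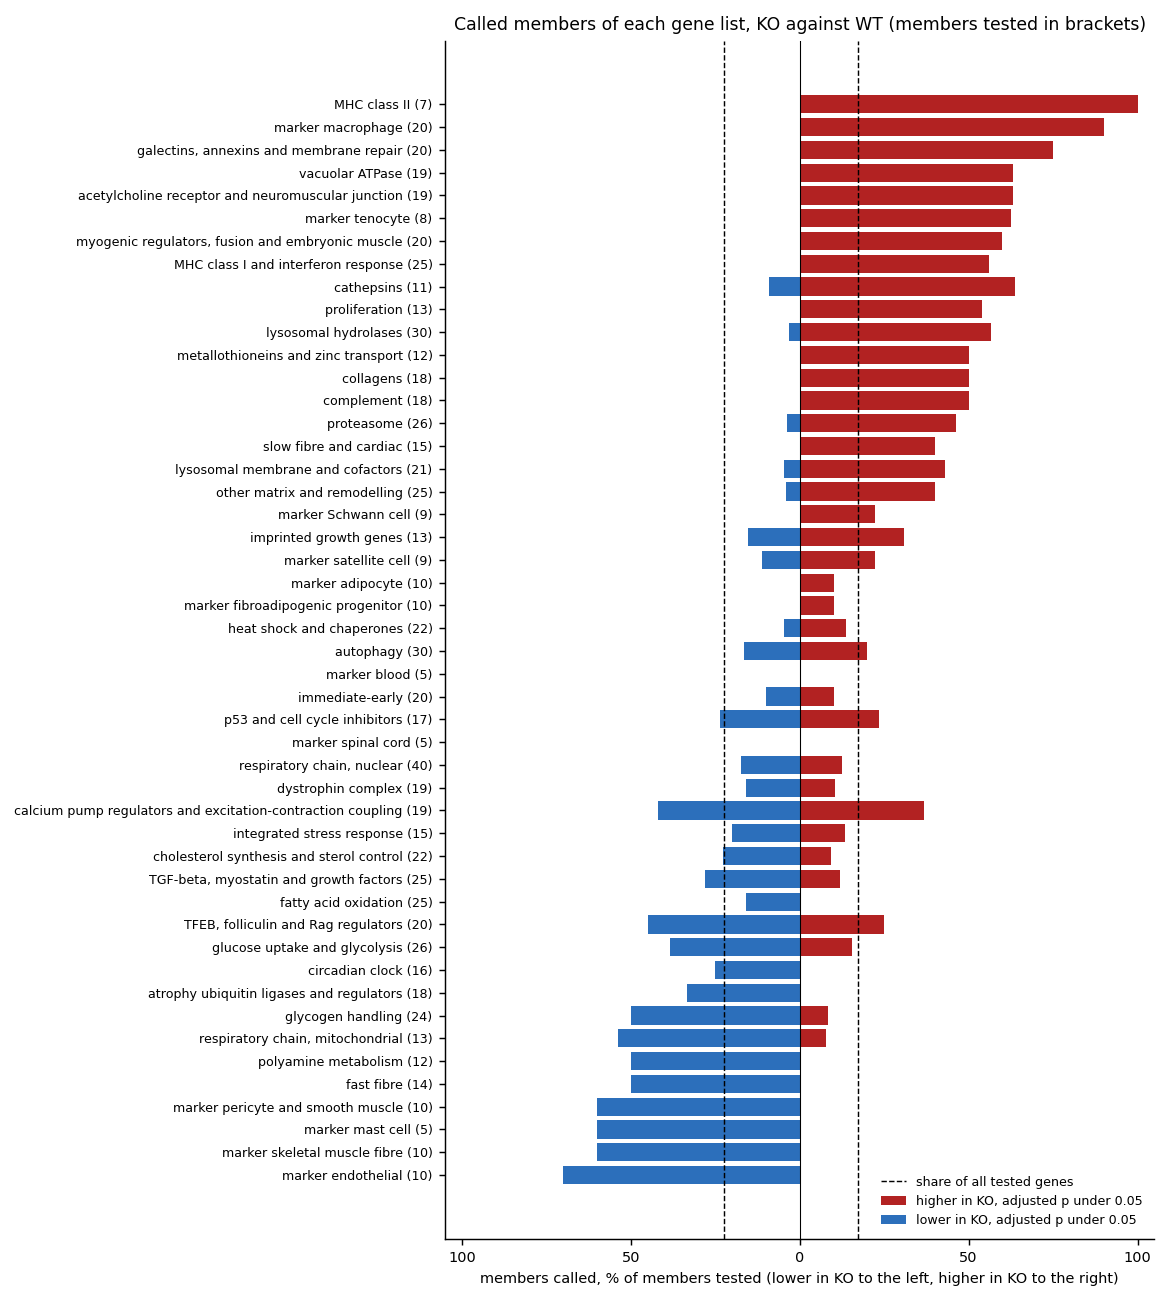
Share of tested members that rose or fell in each gene list with at least 5 tested genes, with dashed lines at the shares over all genes (17.1% rose, 22.3% fell). MHC class II, macrophage, galectin and annexin, and lysosomal lists stand above the dashed line for genes that rose, and glycogen, endothelial and muscle fibre lists above the line for genes that fell.

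Genes of lysosomal digestion rose in KO quadriceps. Of 30 lysosomal hydrolases 17 rose and 1 fell, with a median difference of 0.45. Lgmn encodes legumain, an asparaginyl endopeptidase that processes other lysosomal proteases. It stood at 159.6, 147 and 130.3 in KO, against 34.5, 35.1 and 38.3 in WT. Every KO library lay far above every WT library (2.00 ± 0.13, adjusted p = 3.99e-07). Hexa, which encodes the alpha subunit of hexosaminidase, stood at 169.6, 143 and 158 in KO, against 55, 52.8 and 76.5 in WT. Its libraries were separate as well (1.36 ± 0.11, adjusted p = 2.13e-06). Galns, which removes sulfate from keratan sulfate and chondroitin sulfate, rose as well (4.52, 3.58 and 3.21 in KO, against 0.942, 1.41 and 1.46 in WT; 1.27 ± 0.19). Ppt1, a palmitoyl-protein thioesterase, stood at 37.5, 44.4 and 37.8 in KO, against 23.2, 20.1 and 18.2 in WT. Ppt1 rose by 0.95 ± 0.20 with no overlap. The member that fell was Smpd1, acid sphingomyelinase (80.9, 78.1 and 81.8 in KO, against 93.8, 95.9 and 99.6 in WT; -0.26 ± 0.06), and its difference became 0.03 when libraries were scaled to total reads. Tpp1 and Neu1, a tripeptidyl peptidase and a sialidase, showed no called difference (0.07 ± 0.06 and -0.01 ± 0.14), though Tpp1 was called as higher under quantile normalization and scaling to total reads. Fitted on the 6 libraries alone, 10 hydrolases rose.

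Of 11 tested cathepsins 7 rose and 1 fell (median 0.66). Ctsl, a cysteine protease of most lysosomes, stood at 181, 176 and 162 in KO, against 84, 82.5 and 75.4 in WT. The spread within each group was small beside the difference of 1.10 ± 0.08 (adjusted p = 8.77e-07). Ctss, a cathepsin of macrophages and other antigen-presenting cells, stood at 41.7, 33.1 and 28.1 in KO, against 4.58, 6.89 and 4.63 in WT. The groups were far apart (2.57 ± 0.28, adjusted p = 1.6e-05). Ctsk, known from osteoclasts and fibroblasts, showed the same order (19.3, 17.2 and 10.8 in KO, against 4.71, 5.15 and 4.79 in WT; 1.55 ± 0.21), with KO 8 lowest among the KO libraries. Ctsb and Ctsd, proteases of most cell types, rose by 0.66 ± 0.08 and 0.45 ± 0.12, and the call of Ctsd was lost in a fit of the 6 libraries alone. Ctso was the cathepsin that fell (11, 12.1 and 9.68 in KO, against 14.1, 17.5 and 15.4 in WT; -0.50 ± 0.12), a call lost under scaling to total reads. Ctse did not pass the filter, and Ctsw was not analysed here.

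Among 21 genes of the lysosomal membrane and its cofactors 9 rose and 1 fell (median 0.31; 15 rose under scaling to total reads). Lamp1, the most used marker of the lysosomal membrane, stood at 899.9, 819.6 and 870.1 in KO, against 602, 599.9 and 597 in WT. The WT libraries were nearly equal and all KO libraries lay above them (0.52 ± 0.06, adjusted p = 1.12e-05). Cd63, a tetraspanin of late endosomes and lysosomes, stood at 411, 314 and 392 in KO, against 131, 124 and 149 in WT. It rose by 1.46 ± 0.11, without overlap. Npc2 and Gm2a, which carry cholesterol and ganglioside inside the lysosome, rose by 0.69 ± 0.11 and 1.01 ± 0.14. Npc1, the membrane partner of Npc2, stood at 46.4, 66.9 and 58.5 in KO, against 76.9, 47 and 272 in WT. It was not called (-0.81 ± 0.51), and its difference was -0.09 without WT 4 and -1.35 without WT 3, where it was called as lower. The calcium channel Mcoln1 and the saposin precursor Psap differed by -0.01 ± 0.08 and 0.08 ± 0.07 and were not called. Under scaling to total reads the difference of Mcoln1 was 0.28 and Psap was called as higher, as it was under quantile normalization. Mfsd8, a lysosomal membrane protein whose loss causes a form of neuronal ceroid lipofuscinosis, was the member that fell (15.8, 22.4 and 18.8 in KO, against 28.6, 30.1 and 26.1 in WT; -0.57 ± 0.13), a call lost under scaling to total reads.

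Subunits of the vacuolar ATPase rose, 12 of 19 with none that fell (median 0.33). Atp6v1a, the catalytic A subunit, stood at 53.5, 54.2 and 57.2 in KO, against 26.2, 28.2 and 33.3 in WT. KO and WT libraries did not overlap (0.91 ± 0.11, adjusted p = 2.57e-05). The accessory subunit Atp6ap2 stood at 50.5, 50 and 43.1 in KO, against 23.6, 22.9 and 33.4 in WT and rose by 0.85 ± 0.13. Atp6v0d2, a d subunit known from osteoclasts and macrophages, had few reads in WT libraries (1.76, 0.914 and 1.11 in KO, against 0.0975, 0.333 and 0.291 in WT; 1.24 ± 0.22). It passed the filter through other libraries and could hardly be called as lower. The ubiquitous d subunit Atp6v0d1 was not called (0.07 ± 0.11) except under scaling to total reads.

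The letters CACGTG, an E-box to which TFEB and related factors are known to bind, were searched on both strands of RefSeq promoters (GRCm38.p6, 250 bases before to 50 bases after the gene start). They were present in 19 of the 63 promoters found for the 81 listed lysosomal and vacuolar ATPase genes (30.2%), against 8.09% of all 27025 promoters and 11.8% of those of tested genes. Promoters of genes that rose and of genes that fell held them in 11.8% and 11% of cases. Windows of 40 bases around a match are shown for Gaa and for hydrolase, cathepsin, membrane and vacuolar ATPase genes that rose, with matches in capitals. The window of Lamp1 holds 2 matches. A match is a description of these letters and no measurement of binding.
Gaa chr11:119267806-119267845 (+ strand): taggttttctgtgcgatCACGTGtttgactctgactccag
Glb1 chr9:114401013-114401052 (+ strand): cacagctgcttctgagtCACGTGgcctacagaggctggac
Sgsh chr11:119355517-119355556 (− strand): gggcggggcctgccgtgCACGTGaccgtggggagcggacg
Ctsd chr7:142387903-142387942 (− strand): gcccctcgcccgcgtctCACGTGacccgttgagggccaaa
Lamp1 chr8:13159129-13159168 (+ strand): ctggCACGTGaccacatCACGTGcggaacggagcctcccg
Atp6v1a chr16:44139368-44139407 (− strand): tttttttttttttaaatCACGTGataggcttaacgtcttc
Atp6v0e chr17:26676382-26676421 (+ strand): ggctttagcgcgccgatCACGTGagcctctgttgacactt
Of these genes Gaa was lower in KO, while the acid beta-galactosidase Glb1 (0.63 ± 0.15), the sulfamidase Sgsh (0.48 ± 0.14) and the vacuolar ATPase subunit Atp6v0e (0.66 ± 0.11) rose. The call of Sgsh was lost in a fit of the 6 libraries alone. The window of Sgsh ends beside the start of Slc26a11, 70.1 kb from Gaa, and an effect of that place was not tested.

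**Figure D4:**
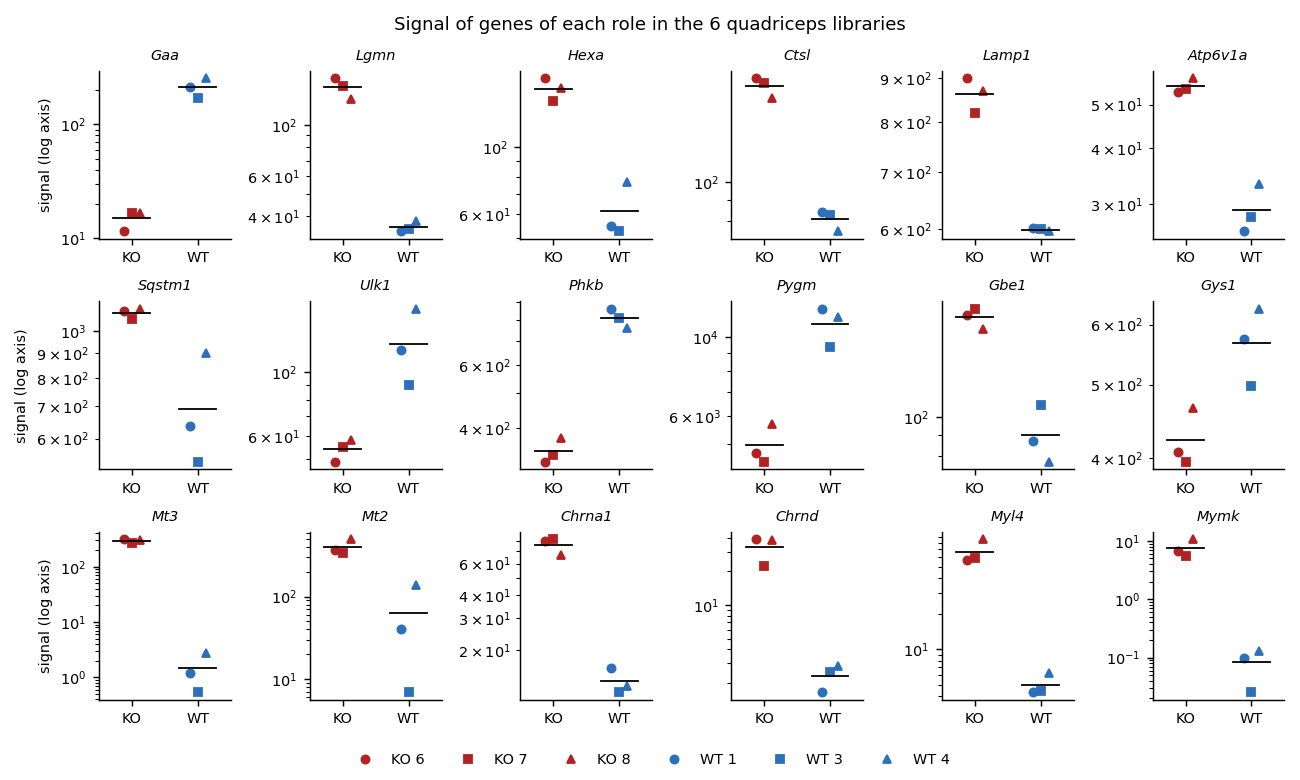
Deposited signal per library (log axis) of 18 genes in the 3 KO (red, left) and 3 WT (blue, right) libraries, with the mean as a black line. KO lies above WT without overlap for Lgmn, Lamp1, Atp6v1a, Gbe1, Mt3, Chrna1 and Mymk, and below it for Gaa, Ulk1, Phkb and Pygm.

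Autophagy genes were called in both directions, at shares near those of all genes. Of 30 members 6 rose and 5 fell, against 17.1% and 22.3% of all tested genes. Their median was -0.03, close to that of all genes. Sqstm1, which encodes p62, the cargo receptor that is itself degraded by autophagy, stood at 1097, 1061 and 1111 in KO, against 637, 538 and 899 in WT. All KO libraries lay above all WT libraries (0.69 ± 0.14, adjusted p = 0.00159). Map1lc3a and Gabarap, which coat the autophagosome membrane, rose by 0.75 ± 0.16 and 0.54 ± 0.06, while Map1lc3b was called as higher only under quantile normalization, without KO 7 and under scaling to total reads (0.13 ± 0.06 with all libraries). Ulk1, the kinase that starts autophagy, stood at 48.8, 54.8 and 58.1 in KO, against 119, 90.2 and 166 in WT. KO libraries were all lower (-1.16 ± 0.16, adjusted p = 7.26e-05). Its relative Ulk2 and the membrane-supplying Atg9a fell as well, by 0.64 and 0.78 on the log2 scale. The count of members that rose was 3 without KO 6, KO 8 or WT 1, and 17 under scaling to total reads.

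Among 20 genes around TFEB, folliculin and the Rag GTPases 5 rose and 9 fell (median -0.05). Mitf, a TFEB relative, stood at 18.9, 19.1 and 16.4 in KO, against 24.7, 27.6 and 31.3 in WT and fell by 0.60 on the log2 scale (SE 0.11). Tfeb itself stood at 77.5, 66.3 and 82.7 in KO, against 94.5, 98.4 and 83.4 in WT. The groups lay close together (-0.29 ± 0.11, adjusted p = 0.0444), its call was lost under most alternatives, and its difference was 0.01 under scaling to total reads. Tfe3 was not called (0.10 ± 0.15). Subunits of the Ragulator complex, which holds the Rag GTPases on the lysosome, rose for 4 of the 5 genes, with Lamtor4 at 56.9, 57.7 and 72.9 in KO, against 40.1, 41.8 and 48.2 in WT (0.52 ± 0.13). Mtor, the kinase, and Rptor, the mTORC1 scaffold, fell (-0.38 ± 0.10 and -0.44 ± 0.08), calls lost under scaling to total reads and, for Mtor, in a fit of the 6 libraries alone. The mTORC1 inhibitor Tsc1 fell as well (-0.59 ± 0.08). Only 2 members fell under scaling to total reads and 5 without KO 6.

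Of 24 genes of cytosolic glycogen handling 12 fell, 2 rose and 10 were not called, with a median of -0.43 (-0.14 under scaling to total reads). The summed signal of the list was 11299, 11499 and 13673 in KO, against 23334, 19528 and 23029 in WT. The fall took in both breakdown and synthesis. Phka1, Phkb and Phkg1 encode subunits of muscle phosphorylase kinase, which activates the phosphorylase Pygm. Phka1 stood at 690.0, 659 and 843 in KO, against 1345, 1219.6 and 1287 in WT. All KO libraries lay below every WT library (-0.82 ± 0.10, adjusted p = 2.66e-05). Phkg1 stood at 401, 406 and 480.0 in KO, against 786, 754 and 603 in WT and fell by 0.73 on the log2 scale (SE 0.10). On the synthesis side Gys1, the muscle glycogen synthase, stood at 407, 396 and 466 in KO, against 574, 498 and 629.6 in WT. All KO libraries were lower (-0.42 ± 0.10, adjusted p = 0.00362), a call lost under scaling to total reads. Ppp1r3c and Ppp1r3a, which target protein phosphatase to glycogen, fell by 0.96 and 0.75 on the log2 scale. The kinases Gsk3a and Gsk3b, which inhibit glycogen synthase, also fell (-0.60 ± 0.11 and -0.70 ± 0.09). Gbe1, the branching enzyme, went the other way and stood at 181, 187 and 167 in KO, against 86.9, 107 and 77.4 in WT. It rose by 0.99 ± 0.15 (adjusted p = 0.000172), and Phkg2, the kinase subunit known from liver and testis, rose by 0.60 ± 0.10. The glycogenin gene Gyg and the glycogen-to-lysosome adaptor Stbd1 were not called (0.09 ± 0.06 and 0.49 ± 0.21), though both were called as higher under quantile normalization and scaling to total reads. Stbd1 stood at 117, 114 and 136 in KO, against 63.6, 75.1 and 138 in WT, with WT 4 at the level of KO, and it was also called as higher without WT 4.

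Glucose uptake and glycolysis genes fell for 10 of 26 members and rose for 4 (median -0.33). Slc2a4, the insulin-responsive glucose transporter of muscle, stood at 484, 548 and 567 in KO, against 749.5, 761 and 973 in WT. It fell without overlap (-0.63 ± 0.11, adjusted p = 0.000418). Slc2a3, a high-affinity transporter, fell further, to 2.24, 4 and 3.56 in KO, against 24.5, 23.3 and 11.2 in WT (-2.37 ± 0.30). Hk1, the hexokinase of most tissues, rose (27.5, 23.1 and 23.7 in KO, against 7.57, 11.2 and 9.93 in WT; 1.34 ± 0.16), while Hk2, that of muscle, was not called (360.3, 418 and 419 in KO, against 368, 409.8 and 1165 in WT; -0.49 ± 0.32), and its difference was 0.04 without WT 4. Tpi1, triose phosphate isomerase, stood at 2045, 2194 and 2430.0 in KO, against 3277, 3153 and 3567 in WT and fell (-0.59 ± 0.10), a call lost under quantile normalization. Gapdh was not called (0.12 ± 0.11) but was called as higher under quantile normalization and scaling to total reads. The list had 1 or 2 members that rose without KO 6, KO 8 or any single WT library, and 4 to 6 that fell under these scalings or in a fit of the 6 libraries alone.

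Genes of fatty acid oxidation were nearly level. None of 25 rose and 4 fell, and their median of -0.19 became 0.11 under scaling to total reads. Ppard, a nuclear receptor that controls fat use in muscle, stood at 13.1, 17.2 and 18.4 in KO, against 31, 32.1 and 38.5 in WT. KO libraries were below all WT libraries (-1.04 ± 0.14, adjusted p = 5.89e-05). Cpt1b, the carnitine transferase of muscle mitochondria, fell by 0.48 on the log2 scale, a call lost under that scaling. Of 40 nuclear-encoded respiratory chain genes 5 rose and 7 fell (median -0.002), a split that became 26 and 0 under scaling to total reads. Cox8b, a subunit of cytochrome oxidase, stood at 723, 859 and 908 in KO, against 505, 492 and 605 in WT and rose by 0.63 ± 0.10, and Uqcrc1 of complex III fell (702, 759.7 and 811 in KO, against 1009, 1037 and 1100.1 in WT; -0.47 ± 0.10), a call lost under that scaling.

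Of 13 protein genes of the mitochondrial genome 7 fell and 1 rose (median -0.47), and 2 fell under quantile normalization and 3 under scaling to total reads. mt-Nd5 of complex I stood at 3911, 4990.2 and 4311 in KO, against 7748, 7612 and 7295 in WT. The highest KO library lay below the lowest WT library (-0.78 ± 0.15, adjusted p = 0.000888). mt-Nd3, also of complex I, rose (1887, 2040.2 and 2243 in KO, against 1054, 1295 and 1695 in WT; 0.63 ± 0.23), a call lost without any single library other than WT 4. Mitochondrial genes took 16.4% ± 1.83 of reads in KO and 17.2% ± 0.673 in WT (SD, n = 3 each), a difference of -0.758 points that did not pass an exact permutation test (two-sided p = 0.5, where 0.1 is the smallest possible). Without KO 6 it was 0.101 points. The 20 most read genes took 33.3% ± 1.32 of reads in KO and 37.5% ± 0.881 in WT, and all KO libraries lay below all WT libraries (exact permutation p = 0.1, two-sided, the smallest possible).

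Metallothioneins, small cysteine-rich proteins that bind zinc and copper and are induced by metals and stress, rose for all 4 genes. Mt3 had the largest rise of all tested genes on the log2(signal + 0.5) scale, which understates genes with few or no WT reads. It stood at 314, 272 and 307 in KO quadriceps, against 1.2, 0.538 and 2.73 in WT quadriceps. Every KO library lay far above every WT library (7.38 ± 0.35, adjusted p = 3.89e-08), and the difference was 6.47 with a pseudocount of 2. Mt2 stood at 368, 334 and 497 in KO, against 40.5, 6.89 and 139.9 in WT. The groups did not overlap although WT libraries ranged widely, with WT 4 highest (3.50 ± 0.71, adjusted p = 0.00175). Mt1 stood at 303, 258 and 441 in KO, against 67.7, 12.6 and 162 in WT and showed the same order of WT libraries (2.63 ± 0.64). Mt4, known from stratified epithelium, was near the level of 1 read in WT (6.87, 4.94 and 7.28 in KO, against 0.0325, 0.0769 and 0.0265 in WT; 3.64 ± 0.18). It passed the filter through other libraries and could hardly be called as lower. Slc30a1, the zinc exporter of the plasma membrane, rose by 0.59 ± 0.15. Mtf1, the metal-responsive transcription factor, was not called (-0.21 ± 0.10). Of the 12 genes in the metallothionein and zinc list 6 rose and none fell.

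The core of the metal response element, searched as TGCACNC and TGCGCNC on both strands, was present in 8 of 11 promoters found for the metallothionein and zinc list (72.7%), against 28.2% of all 27025 promoters and 40.1% of those of tested genes. Promoters of genes that rose held it in 37% of cases and those of genes that fell in 44.4%. The windows of Mt1, Mt2 and Mt3 are shown whole, with matches in capitals. These genes and Mt4 lie beside each other on chromosome 8, and all 4 rose. Matches numbered 3 for Mt1, 4 for Mt2, 1 for Mt3 and 1 for Mt4, whose window is not shown.
Mt1 chr8:94178839-94179138 (+ strand): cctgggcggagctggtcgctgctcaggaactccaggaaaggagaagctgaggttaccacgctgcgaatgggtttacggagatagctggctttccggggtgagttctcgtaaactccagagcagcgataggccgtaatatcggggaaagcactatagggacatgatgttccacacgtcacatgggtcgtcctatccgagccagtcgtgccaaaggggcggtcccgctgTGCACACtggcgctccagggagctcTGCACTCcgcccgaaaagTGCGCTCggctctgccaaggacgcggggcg
Mt2 chr8:94172368-94172667 (+ strand): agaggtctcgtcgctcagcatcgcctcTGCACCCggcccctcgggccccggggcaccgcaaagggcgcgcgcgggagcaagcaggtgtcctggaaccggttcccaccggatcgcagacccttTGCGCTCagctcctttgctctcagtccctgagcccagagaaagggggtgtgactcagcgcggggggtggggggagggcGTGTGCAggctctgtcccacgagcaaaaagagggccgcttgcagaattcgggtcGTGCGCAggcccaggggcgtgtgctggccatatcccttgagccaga
Mt3 chr8:94152357-94152656 (+ strand): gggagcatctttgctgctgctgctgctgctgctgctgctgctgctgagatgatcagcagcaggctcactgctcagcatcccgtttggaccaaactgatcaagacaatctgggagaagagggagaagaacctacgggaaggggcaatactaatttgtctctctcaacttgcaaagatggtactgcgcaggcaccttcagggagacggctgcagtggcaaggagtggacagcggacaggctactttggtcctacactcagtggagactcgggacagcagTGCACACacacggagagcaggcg

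Genes of embryonic and newly formed muscle rose strongly. Of 20 members 12 rose and none fell, with a median of 1.5. Mymk encodes myomaker, the membrane protein that lets myoblasts fuse. It stood at 6.6, 5.56 and 10.6 in KO, against 0.0975, 0.0256 and 0.132 in WT. WT libraries stood near the level of single reads, and the difference was 3.75 ± 0.26 (adjusted p = 5.09e-07). Its partner myomixer, Mymx, rose as well (1.07, 1.49 and 2.49 in KO, against 0.227, 0.0769 and 0.185 in WT; 1.67 ± 0.25). Neither Mymk nor Mymx had a WT library of the mixed background at a signal of 1. They passed the filter through other libraries, and genes this low in WT could hardly be called as lower. Myh3, the embryonic myosin heavy chain, stood at 32.6, 39.8 and 39.4 in KO, against 3.67, 4.43 and 4.74 in WT, and Myh8, the perinatal one, at 98.2, 117 and 99 in KO, against 22.3, 30.1 and 20.8 in WT. Both rose without overlap, by 2.98 ± 0.26 and 2.09 ± 0.20. The cardiac and fetal isoforms Actc1 and Tnnt2 rose by 2.97 ± 0.75 and 3.10 ± 0.22. Myog, the transcription factor of differentiating myoblasts, stood at 23, 25.7 and 25.8 in KO, against 4.91, 5.25 and 9.29 in WT and rose by 1.91 ± 0.25 (adjusted p = 5.93e-05). Pax7, Myf5 and Myod1, which mark satellite cells and dividing myoblasts, were not called (0.11 ± 0.24, 0.50 ± 0.20 and -0.13 ± 0.18). Myf5 was called as higher under median centring, with edgeR, with DESeq2, without KO 6 and under scaling to total reads.

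Acetylcholine receptor and neuromuscular junction genes rose for 12 of 19 tested members, with none that fell (median 0.66). Chrng encodes the fetal gamma subunit of the receptor, which is replaced by the adult epsilon subunit in innervated muscle. It stood at 3.49, 5.62 and 4.88 in KO, against 0.877, 0.231 and 0.662 in WT. All KO libraries were higher (2.27 ± 0.26, adjusted p = 2.25e-05). Chrng passed the filter through libraries other than these WT libraries and could hardly be called as lower. The epsilon subunit Chrne rose by 0.53 ± 0.19, a call lost in a fit of the 6 libraries alone and without any single library other than WT 1 and WT 3. Chrnb1, the beta subunit, rose by 0.84 ± 0.11. Runx1, a transcription factor induced by denervation, stood at 19, 19.9 and 16.4 in KO, against 2.18, 3.51 and 9.24 in WT. It rose without overlap even with WT 4 above the other WT libraries (2.00 ± 0.33, adjusted p = 0.000354). Gadd45a, a growth arrest gene also induced by denervation, rose by 2.01 ± 0.22. Colq, the collagen tail of acetylcholinesterase, rose (47.2, 27.8 and 30 in KO, against 10.6, 10 and 8.34 in WT; 1.77 ± 0.20). The kinase Musk and its adaptor Dok7 were not called (-0.44 ± 0.32 and -0.52 ± 0.26), and without WT 4 their differences were -0.10 and -0.18.

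The letters CAGCTG, an E-box known to be bound by myogenic factors such as myogenin, were found in 11 of 27 promoters of the embryonic muscle and neuromuscular lists (40.7%), against 18.3% of all promoters and 18.3% of those of tested genes. Genes that rose held them in 20.8% and genes that fell in 17.9%. Windows are shown for 3 receptor subunits, with the match in capitals.
Chrna1 chr2:73580360-73580399 (− strand): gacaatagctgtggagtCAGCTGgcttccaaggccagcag
Chrng chr1:87205662-87205701 (+ strand): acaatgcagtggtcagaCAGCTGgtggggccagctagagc
Chrne chr11:70619310-70619349 (− strand): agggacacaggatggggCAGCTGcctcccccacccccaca
Of these subunits Chrna1 and Chrng rose by 2.47 and 2.27, and Chrne by 0.53, with the same letters in all 3 windows.

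Contractile genes of fast fibres fell for 7 of 14 members and none rose. Their median of -0.32 was 0.02 under quantile normalization and -0.02 under scaling to total reads, with 2 to 4 members that fell in these and in fits with edgeR, DESeq2 or the 6 libraries alone. Mybpc2, fast myosin-binding protein C, stood at 3934, 3563 and 4362 in KO, against 7204, 5121 and 6927 in WT. KO libraries were lower without overlap (-0.69 ± 0.13, adjusted p = 0.0013). Among fast myosins the type IIB gene Myh4 fell (-1.02 ± 0.17), while the IIX gene Myh1 and the IIA gene Myh2 were not called (10416, 11686 and 11197 in KO, against 8798, 10598 and 7842 in WT for Myh1 and 4519, 6171 and 4585 in KO, against 3169, 4098 and 3569 in WT for Myh2). The calls of Mybpc2 and Myh4 were lost under quantile normalization, and Myh2 was called as higher there, with DESeq2 and under scaling to total reads, as was Myh1 under scaling to total reads. Of 15 slow fibre and cardiac genes 6 rose and none fell (median 0.74). Myl2, the slow myosin light chain, stood at 102, 349 and 103 in KO, against 26.8, 43.8 and 69.4 in WT. The lowest KO library was above the highest WT library, and KO 7 stood apart (1.82 ± 0.48, adjusted p = 0.0091). Myoz2, a Z-disc protein of slow fibres, rose by 1.07 ± 0.19. The slow myosin Myh7 overlapped between the groups (71.6, 91.1 and 3.38 in KO, against 5.95, 27.7 and 84.2 in WT) and was not called.

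Of 19 genes of calcium handling 7 rose and 8 fell. The rise was led by small inhibitors of the calcium pump: Sln at 70.3, 80.8 and 48.3 in KO, against 4, 5.66 and 2.41 in WT and phospholamban, Pln, at 9.56, 4.21 and 6.14 in KO, against 1.66, 2.13 and 0.768 in WT. Both groups of libraries were separate for each gene, and the differences were 3.92 ± 0.29 and 1.82 ± 0.37. Mrln, which encodes myoregulin, the pump inhibitor of fast fibres, fell (32.9, 35.3 and 39.5 in KO, against 100.1, 83.9 and 84.8 in WT; -1.31 ± 0.20, adjusted p = 0.000191). Ryr1, the calcium release channel, stood at 2538, 2310.1 and 2769 in KO, against 5823, 5356 and 5147 in WT. It fell by 1.10 on the log2 scale (SE 0.10), and the junctional proteins Jph1 and Trdn fell by 1.01 and 0.76. Cacng1, the gamma subunit of the muscle calcium channel, rose (815, 644 and 742 in KO, against 341, 281 and 340.3 in WT; 1.19 ± 0.13).

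Most of the dystrophin complex was level, with 2 of 19 genes that rose and 3 that fell. Dmd, dystrophin, stood at 93.8, 100.5 and 97.9 in KO, against 97, 110.5 and 95.5 in WT and was not called (-0.05 ± 0.11). Aqp4, the water channel anchored by the complex in fast fibres, fell to 2.31, 5.77 and 4.52 in KO, against 50.9, 46 and 23.4 in WT (-3.11 ± 0.30, adjusted p = 5.21e-06). Lama2, a laminin chain bound by dystroglycan, rose by 0.82 ± 0.13.

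No atrophy gene rose and 6 of 18 fell, with a median of -0.17 that became 0.12 under scaling to total reads, where 3 fell. Trim63, the ubiquitin ligase MuRF1, stood at 410.3, 497 and 641 in KO, against 628, 309 and 1711 in WT. The WT range spanned the KO range, and neither it nor the ligase Fbxo32 was called (-0.45 ± 0.42 and -0.32 ± 0.27). Without WT 3 Trim63 was called as lower, at -1.03, and without WT 4 its difference was 0.20. Foxo4, a transcription factor of the atrophy programme, fell (102, 108 and 118 in KO, against 251, 239 and 187 in WT; -1.03 ± 0.10, adjusted p = 6.7e-06). Of 25 genes of TGF-beta, myostatin and growth factor signalling 3 rose and 7 fell. The myostatin receptor gene Acvr2a fell (29.2, 30.5 and 29.7 in KO, against 57.9, 62.7 and 46.2 in WT; -0.88 ± 0.15), as did Smad3, which carries the signal to the nucleus (92, 98.9 and 102 in KO, against 175, 144 and 163 in WT; -0.72 ± 0.07). Mstn, myostatin, stood at 12.3, 12.2 and 16.1 in KO, against 123, 93.9 and 108 in WT (-2.95 ± 0.20). Tgfb1 was not called (0.55 ± 0.25) except with DESeq2, without KO 7 and under scaling to total reads.

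Galectins, annexins and other genes of membrane repair rose for 15 of 20 members, with none that fell (median 0.65). Lgals3, galectin-3, which gathers on torn lysosomes and is abundant in macrophages, stood at 91.5, 55.2 and 84.4 in KO, against 3.87, 4.59 and 9.82 in WT. Every KO library lay well above every WT library (3.63 ± 0.33, adjusted p = 3.55e-06). Lgals8 and Lgals9, the other galectins known to sense lysosome damage, were not called (-0.06 ± 0.12 and 0.18 ± 0.17). S100a4 stood at 147, 91.4 and 111 in KO, against 6.14, 8.58 and 7.7 in WT and Anxa4 at 128, 110.1 and 121 in KO, against 17.5, 25.2 and 24.9 in WT. Both calcium-binding genes rose without overlap (3.86 ± 0.23 and 2.40 ± 0.12). Anxa2, which forms membrane patches with its partner S100a10, rose by 1.84 ± 0.18.

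Matrix genes rose in part, and KO 8 was low among KO libraries. Of 18 collagens 9 rose and none fell (median 0.59), with 5 that rose without KO 6, 4 without KO 7 and 14 under scaling to total reads. Col1a2, fibrillar collagen I, stood at 350.4, 377 and 223 in KO, against 137, 146 and 131 in WT and rose by 1.16 ± 0.20 (adjusted p = 0.000461). Col3a1 stood at 427, 571 and 262 in KO, against 201, 227 and 239.9 in WT, with KO 8 close to the WT libraries (0.85 ± 0.28), and its call was lost without KO 6, KO 7, WT 1 or WT 3. Of 25 other matrix and remodelling genes 10 rose and 1 fell. Timp1, an inhibitor of metalloproteases induced by injury, stood at 37.3, 20.7 and 30.7 in KO, against 0.422, 0.641 and 2.83 in WT. The groups were far apart in every library (4.27 ± 0.42, adjusted p = 5.86e-06). Postn, periostin, and Tnc, tenascin C, rose by 2.13 ± 0.34 and 1.45 ± 0.17. Fn1, fibronectin, stood at 188, 178 and 67 in KO, against 85.4, 92.9 and 79 in WT and was called only without KO 8 (1.09). Eln, elastin, was the member that fell (-0.51 ± 0.18), a call lost when any of 4 libraries (KO 6, KO 8, WT 3 or WT 4) was left out, in a fit of the 6 libraries alone and under scaling to total reads.

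Complement genes rose for 9 of 18 members with none that fell (median 0.76). C1qa, a subunit of the recognition protein C1q made by macrophages, stood at 61.8, 51.2 and 32.9 in KO, against 14.1, 17.1 and 23.2 in WT. KO 8 was lowest among KO libraries but above all WT libraries (1.38 ± 0.30, adjusted p = 0.00276). The count of genes that rose was 3 without KO 7, 4 without KO 6 or WT 3, and 14 without KO 8. C3, the central component, was not called with all libraries (0.58 ± 0.43).

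All 7 MHC class II genes rose, with a median of 1.89. H2-Eb1, a beta chain, stood at 69.9, 60.6 and 41 in KO, against 14.4, 14.3 and 10.2 in WT. KO 8 was lowest among KO libraries and still well above every WT library (2.08 ± 0.27, adjusted p = 5.49e-05). Ciita, the regulator that switches class II genes on, was low and rose as well (4.11, 2.85 and 2.01 in KO, against 0.357, 0.743 and 0.662 in WT; 1.65 ± 0.28). Ciita passed the filter through libraries other than these WT libraries and could hardly be called as lower. Of 25 genes of MHC class I and the interferon response 14 rose and none fell (median 0.67). Tapbp, tapasin, which loads peptides onto class I, stood at 57.6, 52.6 and 51.5 in KO, against 32.8, 29.6 and 33 in WT and rose by 0.75 ± 0.09 (adjusted p = 4.3e-05). Irf1, a transcription factor induced by interferon gamma, rose by 1.07 ± 0.21. The classical interferon-induced genes Isg15 and Ifit2 were not called (0.15 ± 0.21 and 0.11 ± 0.18).

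Markers of other cell types moved with these groups, and their part in the results above was not tested. Macrophage markers rose for 18 of 20 genes, with none that fell (median 1.44), and their summed signal was 662, 514 and 338 in KO, against 143, 179 and 192 in WT. Cx3cr1, among them, was low in WT (0.227, 0.436 and 0.0265). It passed the filter through other libraries and could hardly be called as lower. Cd68, a lysosomal glycoprotein of macrophages, stood at 28, 21.9 and 19.5 in KO, against 2.96, 3.1 and 9.13 in WT. KO libraries were all higher (2.25 ± 0.36, adjusted p = 0.000274). Mrc1 and Cd163, markers of resident macrophages, were not called (0.50 ± 0.38 and 0.17 ± 0.33), though Mrc1 was called as higher without KO 8 (0.98). Endothelial markers fell for 7 of 10 genes, with none that rose. Their summed signal was 209, 288 and 239 in KO, against 375, 396 and 443 in WT. Eng, endoglin, stood at 14.9, 21.1 and 18.1 in KO, against 35.5, 38.5 and 55 in WT and fell by 1.22 on the log2 scale (SE 0.15). Markers of pericytes and smooth muscle fell for 6 of 10 genes (3 under scaling to total reads), with Kcnj8, a potassium channel of pericytes, at 4.18, 7.13 and 4.52 in KO, against 13.7, 12.9 and 16.3 in WT (-1.39 ± 0.28).

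Tendon markers rose for 5 of 8 genes, among them Tnmd, tenomodulin (21.7, 21.2 and 13.8 in KO, against 7.96, 7 and 4.74 in WT; 1.46 ± 0.22), and their summed signal was 419, 384 and 284 in KO, against 213, 225 and 221 in WT. Of 9 tested Schwann cell markers 2 rose and none fell. Of 5 tested mast cell markers 3 fell, and the call of Tpsb2, a tryptase, was lost without KO 8, without WT 3 and under scaling to total reads. Cma1, chymase, stood at 1.62, 1.33 and 0.449 in KO, against 2.63, 4.54 and 3.52 in WT (-1.37 ± 0.32). Of 10 fibroadipogenic progenitor markers 1 rose (Lum, 2.02 ± 0.27), of 10 adipocyte markers 1 (Cfd, 1.44 ± 0.45, a call lost without KO 7 or WT 3), of 9 satellite cell markers 2 rose and 1 fell, and of 5 tested blood markers none was called. Of 10 muscle fibre markers 6 fell and none rose, with Ttn, titin, at 7125, 8071 and 8171 in KO, against 15382, 15814 and 14828 in WT (-0.98 ± 0.10). The median of these markers was -0.69, but -0.15 under quantile normalization and -0.39 under scaling to total reads. The calls of Ckm and Myh4 were lost under quantile normalization. Spinal cord markers were near the floor, with Snap25 at 0.38, 0.444 and 1.29 in KO, against 0.617, 0.384 and 0.715 in WT and none of 5 called. Ptprc, the pan-leukocyte gene, rose (11.6, 8.23 and 6.02 in KO, against 2.76, 3.31 and 3.47 in WT; 1.27 ± 0.28), and 1 neutrophil marker (Csf3r) and 1 T cell marker (Cd3e) passed the filter.

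Proteasome genes rose for 12 of 26 members and fell for 1, with a small median of 0.16 (24 rose under scaling to total reads). Psma5, a subunit of the core ring, stood at 84.2, 82.4 and 90 in KO, against 63.8, 52.3 and 53.8 in WT and rose by 0.59 ± 0.08 (adjusted p = 9.72e-05). Heat shock genes rose for 3 of 22 members and fell for 1, against 17.1% and 22.3% of all tested genes. The calls of Hsp90b1 and Hspb2, which rose, and Unc45b, which fell, were lost in a fit of the 6 libraries alone. Each was also lost without any of several single libraries. Hspb7, a small heat shock protein of heart and slow muscle, stood at 982, 1327 and 1036 in KO, against 316, 284 and 864 in WT. WT 4 lay close to the KO libraries but below them (1.37 ± 0.37). Genes of the integrated stress response rose for 2 of 15 tested members and fell for 3, against the same 17.1% and 22.3% of all tested genes. Atf5, a transcription factor of that response, fell (41.3, 51 and 60.9 in KO, against 78.6, 99.8 and 131 in WT; -0.99 ± 0.16), while Psat1 of serine synthesis rose (8.25, 6.92 and 8.6 in KO, against 2.31, 3.36 and 2.67 in WT; 1.37 ± 0.20).

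Among genes of p53 and cell cycle inhibition 4 of 17 rose and 4 fell. Eda2r, a p53 target of the TNF receptor family, stood at 83, 70.7 and 70.2 in KO, against 16.6, 13.7 and 21.4 in WT. The groups were far apart (2.10 ± 0.25, adjusted p = 2.7e-05). Cdkn1a, which encodes p21, was not called (109, 82.6 and 115 in KO, against 60.5, 31.7 and 96.6 in WT; 0.82 ± 0.44). Of 13 tested proliferation genes 7 rose and none fell (3 with the stricter filter), among them Mki67 at 3, 2.12 and 2.31 in KO, against 0.292, 0.487 and 0.927 in WT (1.51 ± 0.30). Mki67, Top2a, Birc5 and Mcm5 had no WT library of the mixed background at a signal of 1. They passed the filter through other libraries, and genes this low in WT could hardly be called as lower. Immediate-early genes were called for 4 of 20 members, 2 in each direction. Fos and Atf3 were not called (-0.79 ± 0.59 and -0.69 ± 0.84), and without WT 4 their differences were 0.14 and 0.80, the value of Atf3 then being called as higher. With edgeR the difference of Atf3 was -2.18 and not called, and with DESeq2 it was -2.16 with no adjusted p given. Nr4a1, a nuclear receptor of muscle metabolism, stood at 139, 165 and 223 in KO, against 434, 309 and 413 in WT. It fell by 1.15 on the log2 scale (SE 0.27).

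Of 16 clock genes 4 fell and none rose, against 22.3% and 17.1% of all tested genes. The share that fell was near that of all genes, and the median of the list was 0.21. Arntl, the core activator BMAL1, stood at 15.2, 16.9 and 16.7 in KO, against 55.9, 56.6 and 75.1 in WT. KO levels were even and far below WT levels (-1.90 ± 0.42, adjusted p = 0.00289). Cry1, a repressor, and Hlf, an output gene, fell by 1.30 and 1.70 on the log2 scale. Dbp and Per2, which peak opposite to Arntl, stood at 28.9, 34.5 and 27.9 in KO, against 12.4, 10.2 and 15.5 in WT for Dbp and 7.77, 11.6 and 5 in KO, against 2.57, 1.77 and 3.31 in WT for Per2. KO libraries were higher than WT libraries without overlap, but neither gene was called (1.24 ± 0.60 and 1.46 ± 0.61). Both were called as higher in a fit of the 6 libraries alone and under scaling to total reads, and Per2 also with DESeq2. Nr1d1, another clock gene, went the other way without overlap (65.8, 54.7 and 66.2 in KO, against 120, 118 and 142 in WT). It was not called either (-1.02 ± 0.49). Over the list the groups were separate at 5 genes with KO higher and 6 with KO lower, against 20.6% and 25.8% of all tested genes. The hour at which tissues were taken is not given in the sources used here.

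Polyamine genes fell for 6 of 12 members and none rose. Smox, spermine oxidase, stood at 85.4, 84.4 and 156 in KO, against 618, 471 and 1324 in WT. KO libraries were all below WT libraries (-2.80 ± 0.34, adjusted p = 3.7e-05). Amd1, which makes the aminopropyl donor for polyamines, stood at 382, 374 and 506 in KO, against 2135, 1819 and 2261 in WT (-2.31 ± 0.16, adjusted p = 5.09e-07), and Odc1, the first enzyme of the pathway, fell by 1.46 on the log2 scale (SE 0.22). The counts of Amd1 and of its near-identical copy Amd2 (4.73, 1.75 and 16.6 in KO, against 214, 171 and 196 in WT) may share reads, so their split is uncertain. Cholesterol genes rose for 2 of 22 members and fell for 5. Srebf1, a transcription factor of lipid synthesis, fell (47.4, 42 and 43.5 in KO, against 164, 172 and 65.9 in WT; -1.46 ± 0.32), and Apoe, a carrier of lipids made by macrophages, rose (313, 231 and 161 in KO, against 84.6, 91.5 and 70.7 in WT; 1.46 ± 0.28).

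Of 13 tested imprinted genes 4 rose and 2 fell. H19, a noncoding RNA of regenerating muscle, stood at 2074, 3075 and 2903 in KO, against 482, 544 and 732 in WT. It rose by 2.20 ± 0.26 (adjusted p = 3.01e-05) without overlap. Igf2, its neighbour, rose as well (26.8, 32.6 and 34.2 in KO, against 20.1, 18.8 and 19.6 in WT; 0.66 ± 0.20), a call lost without KO 7 or KO 8. Peg3 stood at 57.8, 66.8 and 57.7 in KO, against 20.2, 23.8 and 20.2 in WT and rose by 1.49 ± 0.13. Meg3 was not called (-0.26 ± 0.27).

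Outside the lists, the largest rises included Ahnak2, a giant scaffold protein of the AHNAK family, at 210.1, 212 and 198 in KO, against 5.62, 8.33 and 10.5 in WT (4.62 ± 0.18, adjusted p = 4.52e-09). Serpinb1a, an inhibitor of neutrophil proteases, stood at 113, 75.4 and 104 in KO, against 3.22, 5.61 and 4.05 in WT (4.36 ± 0.26). Among the largest falls, Dkk3, a secreted protein of the dickkopf family, stood at 1.76, 3.79 and 1.29 in KO, against 54.6, 23.5 and 59.7 in WT. All KO libraries lay below all WT libraries (-4.06 ± 0.35, adjusted p = 2.48e-06). Odf3l2 stood at 0.932, 1.02 and 3.38 in KO, against 58.1, 13.3 and 38.8 in WT (-3.96 ± 0.49, adjusted p = 4.17e-05). Several of the largest differences were in pseudogenes and gene copies whose reads may be shared with near-identical loci, so their values are uncertain. Gm28661 had no reads in KO and stood at 1529.9, 2308 and 0.185 in WT, where WT 4 was near the KO level. Its call was lost without any single library other than WT 4. BC002163 stood at 0.173, 0.0261 and 0.03 in KO, against 91.1, 46.4 and 94.4 in WT (-7.02 ± 1.24).

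By difference in mean signal, H19, Des, Hspb7, Tpt1 and mt-Nd3 led the genes that rose, and Myh4, mt-Co1, Atp2a1, Ckm and mt-Nd4 led those that fell. That order depends on gene length as well as on level, and it does not compare levels between genes. Des, the intermediate filament desmin, stood at 5982, 5606 and 6482 in KO, against 4549, 4119 and 4926 in WT (0.41 ± 0.10). Tpt1, the translationally controlled tumour protein, rose by 0.47 ± 0.09. Under quantile normalization the difference of mt-Co1 was 0.23. The calls of Atp2a1, Ckm, mt-Co1 and mt-Nd4 were lost under quantile normalization, under scaling to total reads and in a fit of the 6 libraries alone. That of mt-Co1 was also lost without any single library other than KO 7, that of Ckm without KO 6 or WT 1, and that of mt-Nd4 without KO 6, WT 1 or WT 3.

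Gaa lies on chromosome 11. Within 10 Mb of Gaa 45 of 173 tested protein-coding genes rose and 31 fell (43.9% called), against 40.4% of the other 12581. Card14, a scaffold of NF-kappaB signalling 22.3 kb from Gaa, stood at 16.9, 9.64 and 16.4 in KO, against 0.357, 0.692 and 1.03 in WT. The groups were far apart (3.63 ± 0.27, adjusted p = 6.34e-07). Tbc1d16, 39.4 kb away, fell (22.5, 26.9 and 26.9 in KO, against 76.5, 56.2 and 62.6 in WT; -1.33 ± 0.12). Slc26a11, an anion transporter 70.1 kb away, rose (7.29, 6.97 and 6.86 in KO, against 2.18, 1.61 and 1.4 in WT; 1.77 ± 0.15). Tmem94 and Nt5c, 3469 and 3776 kb away, differed by -1.09 ± 0.09 and 1.34 ± 0.14.

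The same knockout was also compared on the B6;129 background, where 3 KO and 3 WT quadriceps libraries were in the other column series, and the effect of background cannot be told apart from that of the series. When both knockout effects were set against each other in the same fit, 40 of 14113 genes (0.283%) were called, 14 upward and 26 downward (mixed minus B6;129). No member of the lysosomal, glycogen, metallothionein, embryonic muscle, neuromuscular, macrophage or MHC lists was among them. Lgmn differed by 2.00 ± 0.13 on the mixed background and 1.90 ± 0.13 on B6;129, Gys1 by -0.42 ± 0.10 and -0.30 ± 0.10, and Arntl by -1.90 ± 0.42 and -0.91 ± 0.42. None of these gaps was called (adjusted p = 0.895 for Lgmn, adjusted p = 0.818 for Gys1 and adjusted p = 0.593 for Arntl). A gap that misses the threshold does not show equal effects: edgeR called 10 genes, DESeq2 203, and leaving out KO 8 gave 116.

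**Figure D5:**
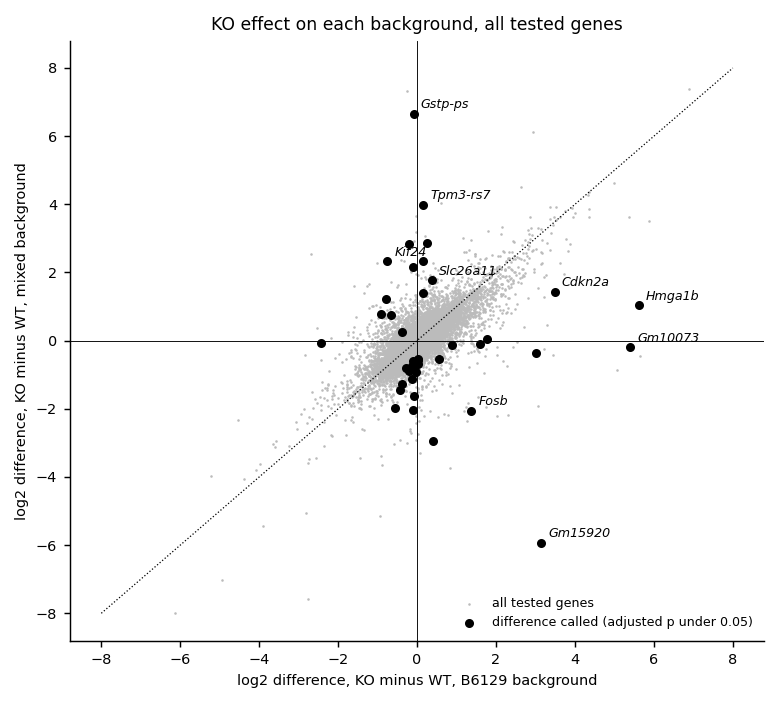
Log2 difference, KO minus WT, on the mixed background (vertical axis) against that on B6;129 (horizontal axis) for each tested gene, with the 40 genes whose difference between backgrounds was called in black and a dotted line of equal effects. Gstp-ps and Tpm3-rs7 lie far above the dotted line, and Gm15920, Hmga1b and Gm10073 far below it.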

How the data were processed

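PolyA RNA of snap-frozen quadriceps was read single-end at 61 bases on a HiSeq2500, per the labels' protocols. Per the submitters' processing notes, the authors used cutadapt, RSEM, edgeR and limma with the GRCm38 build. Versions and the gene filter are not given in the sources used here. The deposited values are a linear signal per gene, and each equals the read count plus 0.5 times a constant of the library. Whole reads were recovered for 100% of values (tolerance 0.001), giving 16854081 to 24660144 reads in KO and 23494194 to 30253043 in WT. A single read is worth 0.0522 to 0.0691 of signal in KO and 0.0512 to 0.0650 in WT. Of the gene identifiers 17397 (99.9%) were found in GENCODE vM21. The table's 15 spinal cord columns were not used.

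A gene was kept where 3 or more of the 15 quadriceps libraries had a signal of 1 or more. A gene with few WT reads could pass through KO libraries alone, and such a gene could hardly be called as lower. One linear model with 5 groups was fitted to log2(signal + 0.5) with limma 3.58.1 in R 4.3.3 (eBayes with trend). P-values were adjusted by Benjamini-Hochberg over 14113 genes with a threshold of 0.05. The pseudocount understates the differences of low genes. P-values of this fit rest on the spread between mice pooled over all 5 quadriceps groups and moderated by eBayes, not within KO and WT alone. The difference of the knockout effect between backgrounds was tested in the same fit. In simulated data with this design, 28.7% of 1.5-fold and 68.7% of 2-fold changes were found among 14113 genes, and 11 of 303 calls (3.63%) were false.

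The text names Gaa and Ltbp4, genes among the 10 largest changes in each direction, the 5 largest gains and losses of signal, called members of each list with the smallest adjusted p or against the list's direction, members whose role needs a value, genes called between backgrounds, and 5 neighbours of Gaa. Members and lists (50 lists, 861 entries, 843 in the table) were chosen with earlier results of these data known. A listed gene absent from the table was not analysed here, and some results are not reported here. Alternatives were a pseudocount of 2, a filter at 4 or none, quantile normalization, median centring, edgeR 4.0.16 and DESeq2 1.42.0 on the recovered reads, a fit of the compared libraries alone, each library left out in turn and, chosen after seeing the data, scaling to total reads. Promoter sequences are from RefSeq (GRCm38.p6).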

Additional observations from a re-analysis of the deposited data

Results flagged for a closer look

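The following genes stand out because the direct test called their knockout effect as different between the mixed and the B6;129 background (limma, log2 differences as mixed minus B6;129, called gaps here). Background and column series cannot be told apart. Gstp-ps, a glutathione transferase pseudogene, stood at 56.2, 46.4 and 56.8 in KO on the mixed background and had no reads in the WT libraries of that background, a KO level at least 942-fold higher taking a floor of 3 reads over the WT group. On B6;129 it stood at 0.0218, 0.0218 and 0.0164 in KO and 0.108, 0.0288 and 0.0232 in WT, and the difference between the effects was 6.75. Tpm3-rs7, a copy related to a tropomyosin gene, stood at 9.7, 11.4 and 8.78 in KO, against 0.227, 0.231 and 0.0265 in WT on the mixed background. On B6;129 it was 0.196, 0.152 and 0.0164 in KO and 0.108, 0.0288 and 0.0232 in WT, a gap of 3.83. Hmga1b, a copy of a chromatin gene, stood at 53.3, 40.3 and 61.9 in KO, against 30.8, 26 and 18.2 in WT on the mixed background. On B6;129 it was 25.4, 23.9 and 27.2 in KO and 0.036, 0.0288 and 0.0232 in WT, a gap of -4.57.

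Gm15920 and Gm10073 had gaps of -9.06 and -5.58. Gm15920 stood at 0.242, 0.0261 and 0.03 in KO, against 26.7, 53.7 and 31.1 in WT on the mixed background, and at 20.7, 20.1 and 17.9 in KO and 0.036, 24.3 and 0.395 in WT on B6;129. Gm10073 had no reads in KO on the mixed background, where WT stood at 0.292, 0.0256 and 0.0265, and stood at 24.4, 25.8 and 29.4 in KO and 0.252, 0.0288 and 0.163 in WT on B6;129. Reads of these 5 copies may be shared with near-identical loci, so their values are uncertain.

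Kif24, a kinesin gene, had a gap of 3.09, with 10.7, 10.6 and 6.98 in KO, against 0.942, 2.33 and 1.3 in WT on the mixed background, and 1.02, 1.2 and 1.5 in KO and 2.41, 2.79 and 2.11 in WT on B6;129. Slc26a11, close to Gaa, had a gap of 1.40, with 7.29, 6.97 and 6.86 in KO, against 2.18, 1.61 and 1.4 in WT on the mixed background, and 8.35, 8.08 and 7.32 in KO and 6.23, 4.93 and 6.95 in WT on B6;129. Fosb, an immediate-early gene, had a gap of -3.42, with 2.66, 1.59 and 1.95 in KO, against 10.6, 10.8 and 8.71 in WT on the mixed background, and 2.68, 2.24 and 3.21 in KO and 0.756, 0.72 and 0.72 in WT on B6;129. Cdkn2a, the cell cycle inhibitor of senescence, had a gap of -2.05, with 1, 1.7 and 0.869 in KO, against 0.0325, 0.231 and 0.0794 in WT on the mixed background, and 5.74, 6.25 and 10.1 in KO and 0.18, 0.202 and 0.163 in WT on B6;129.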

How the results depend on the processing

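No paired analysis was possible because the KO and WT mice of the mixed background share no replicate number. The number of genes called between KO and WT stayed within 1.5 times of 5562 under every alternative run. A fit of the 6 libraries alone called 4054 genes. Under scaling to total reads 5004 genes rose and 1198 fell, and with a pseudocount of 2 692 genes passed 2-fold. With single libraries left out, 4246 to 5275 genes were called (1870 to 2331 up, 2376 to 2944 down, 1029 to 1276 over 2-fold). For the difference between backgrounds, edgeR called 10 genes (3 up, 7 down, 8 over 2-fold), DESeq2 203 (63 up, 140 down, 103 over 2-fold), and the filter at 4 gave 9 up. With single libraries left out that test called 11 to 116 genes (4 to 26 up, 6 to 98 down, 9 to 49 over 2-fold), with 116 in all without KO 8 and 11 without B6;129 WT 4. The cause was not tested. Of 252 called genes chosen by the naming rule, 192 were tested and kept their call and direction under every alternative, 10 kept them where tested but did not pass the filter at 4 or had no adjusted p, and 50 lost the call in at least 1. Reversed values were 0.034 for Smpd1, 0.0085 for Tfeb and 0.28 for Mcoln1 under scaling to total reads, 0.23 for mt-Co1 under quantile normalization and 0.80 for Atf3 without WT 4 (Atf3 ran from -1.58 to 0.80 over single libraries). The difference in the mitochondrial share of reads was 0.101 points without KO 6 and ran from -1.72 to 0.101 over single libraries. That of the 20 most read genes ran from -4.70 to -3.51.

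Depth limits genes whose signal lies near that of 3 reads (0.154 to 0.207). With 3 mice a group a gene without a call may still differ. The simulated recovery of 1.5-fold changes was 28.7%, with a far smaller share of genes changed than was called here. The deposited scaling cannot show whether total RNA per muscle differed.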

Other observations

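Of 9 tested satellite cell markers 2 rose and 1 fell, against 17.1% and 22.3% of all tested genes. Vcam1, an adhesion molecule of satellite cells and vessels, stood at 6.04, 7.91 and 5.84 in KO, against 3.8, 3.61 and 4.26 in WT and rose (0.68 ± 0.17), as did Chodl (18.1, 20.2 and 15.6 in KO, against 10.4, 12.5 and 7.01 in WT; 0.85 ± 0.19). Notch1, a receptor that keeps satellite cells quiet and is also used by vessels, fell (6.8, 8.8 and 5.3 in KO, against 11, 12.5 and 13.3 in WT; -0.80 ± 0.22), a call lost under scaling to total reads.

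By gene type, 2220 of 12755 tested protein-coding genes rose and 2938 fell (40.4% called). Of 312 lincRNAs 49 rose and 44 fell (29.8%), and of 257 processed pseudogenes 34 rose and 37 fell (27.6%). Of 264 genes annotated as antisense 39 rose and 33 fell (27.3%). Whether counting used strand is not given in the sources used here, so reads of a gene and of its antisense partner may not be told apart.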
